A study of Mus musculus with 13 samples.

Results

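This account follows a set of nucleolar ribosome biogenesis factors, genes whose proteins make, cut, modify and package ribosomal RNA, in mouse bone marrow after blood loss. The set was chosen by function and holds 50 genes. Of these, 48 had a probe set annotated to them alone, out of 19938 genes measured in all, and Noc2l and Ppan did not. The 48 fall into 5 steps: 9 of the snoRNP core, 5 of RNA polymerase I, 15 of the small subunit, 15 of the large subunit and 4 that act at several steps. The study measured marrow RNA with 13 Affymetrix Mouse Gene 1.0 ST arrays, 1 per sample. All mice were male C57BL/6, 6 weeks old, with no transgene named. Treated mice had 500 µL of blood drawn from behind the eye, and femurs were taken later at one of 5 times. There was 1 sample at 4 h, 3 at 9 h, and 2 each at 12, 15 and 48 h, beside 3 controls collected at baseline. No label gives a sham puncture, the hour of day, or whether replicates were separate animals, so p-values measure only how far these samples spread, and that spread may be technical.

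Ribosomes are assembled mainly in the nucleolus. RNA polymerase I transcribes a long precursor RNA, small nucleolar ribonucleoproteins (snoRNPs) guide its methylation and pseudouridylation, and separate sets of factors then cut and fold the parts that become the small and the large subunit. Growing and dividing cells make ribosomes at a high rate, and erythroid precursors are known to be sensitive to its loss, as in Diamond-Blackfan anaemia.

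Whole-series facts that bear on every value are few. The numbers in the sample titles form a larger run of 10 arrays and a smaller run of 3. The smaller run holds control replicate 3 and 9 h replicates 1 and 2. Deposited log2 levels are higher in the smaller run, so levels are compared only within a run. Fitted changes draw on both runs, through a run term that takes the 9 h change as equal in both. Values repeat in the smaller run: for 75.6% of all genes, and for 8 of the 48 factors, 2 or more of its 3 arrays carry an identical number. Markers of the labelled tissue were high: the deposited log2 level of Mpo, an enzyme of granulocyte precursors, was 12.67 to 12.86 in the larger run, and that of Slc4a1, the red cell anion exchanger, 12.96 to 13.50. Transcripts of other tissues were present on some arrays. The summed level of 12 small intestine markers was log2 14.31 on the 4 h array, 10.14 and 10.28 in the controls of that run, and 9.26 to 9.41 on its 5 arrays at 9, 12 and 15 h. For 8 liver markers the 48 h arrays stood at 11.88 and 12.24 against 9.03 and 9.20 in the controls. In the smaller run they stood at 10.62 on 9 h replicate 1, where albumin (Alb) was at 9.68, and 9.74 on 9 h replicate 2 against 9.85 in the control, where Alb was at 7.74. For 8 skeletal muscle markers the 4 h array stood at 13.37 against 11.45 and 11.60, the 5 arrays at 9, 12 and 15 h at 10.77 to 12.19 and the 48 h arrays at 12.54 and 10.62. Muscle markers of the smaller run stood at 12.67 in the control and 11.50 and 12.26 at 9 h. In whole marrow, more cells that make a transcript and more transcript per cell cannot be told apart.

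The factors were higher after phlebotomy as a group, by small steps. Averaged over 9, 12 and 15 h, 47 of the 48 lay above control (49.1% of all genes did), with a median log2 change of 0.32 against 0.00 over all genes. At an adjusted p under 0.05 (limma, adjusted over all 19938 genes by the Benjamini-Hochberg method, as in all that follows) 14 factors passed, all of them higher, where 0.652% of all genes did. None passed in the lower direction, where 0.135% of all genes did. The 14 were Nop58 and Nhp2 of the snoRNP core, Wdr75 and Wdr43 of the small subunit, Nop16, Wdr12, Gnl3, Mrto4, Gtpbp4 and Nip7 of the large subunit, and Npm1, Ncl, Mybbp1a and Ddx21, which act at several steps. No subunit of RNA polymerase I passed. At an unadjusted p under 0.05, 45 factors were higher, where 7.39% of all genes were. The fitted rises of the 14 ran from 1.26-fold for Ncl to 1.54-fold for Nip7.

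**Figure D1:**
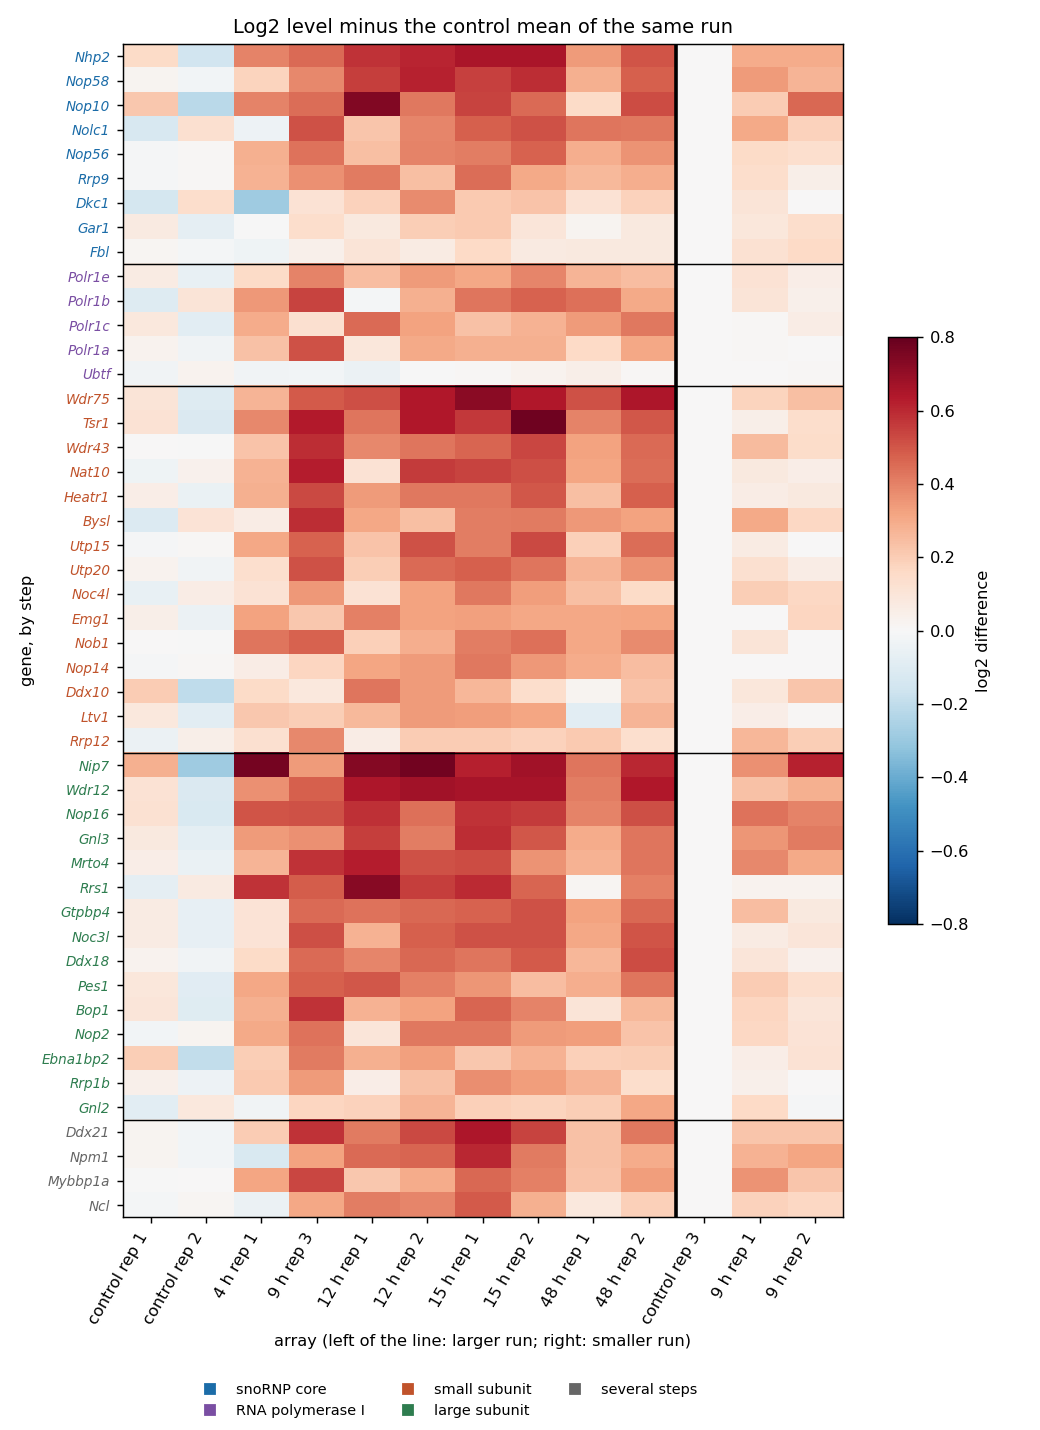
Log2 level of each of the 48 factors (rows, grouped by step) on each of 13 arrays (columns), minus the mean of the controls of the same run; red is higher and blue lower. The 5 arrays at 9, 12 and 15 h in the larger run are red for nearly every factor, with per-array medians of 0.31 to 0.45, and the 9 h arrays of the smaller run are paler, at 0.15 and 0.13.

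The rise was also seen array by array. In the larger run 44 of the 48 factors had all 5 arrays at 9, 12 and 15 h above both controls, where 9.24% of all genes did; the exceptions were Dkc1, Polr1b, Ubtf and Ddx10. In the smaller run 42 had both 9 h arrays above the single control, where 12.8% of all genes did. Both conditions held for 40 factors and for 3.32% of all genes. Repeated values hold these shares of all genes down, since a 9 h array equal to the control cannot lie above it. Among the 6897 genes, 43 of them factors, where neither 9 h array equalled the control, the first held for 42 factors and 37% of genes and both together for 40 factors and 9.6% of genes. No factor had all 5 arrays below both controls, where 6.71% of all genes did. The median over the factors stood above the control mean of its run by log2 0.45 on the 9 h array of the larger run, by 0.31 and 0.40 at 12 h, by 0.43 and 0.42 at 15 h and by 0.27 and 0.36 at 48 h. The controls themselves differed: control replicate 1 was above control replicate 2 for 31 factors, by a median of 0.06, with single differences from −0.28 (Dkc1) to 0.57 (Nip7).

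The count of 14 moved when single arrays were left out. It was 1 without control replicate 2 (Nop58, adjusted p = 0.0496) and 22 without control replicate 3. It was 9 without control replicate 1, 9 h replicate 1 or 15 h replicate 2, 6 without 15 h replicate 1, 7 without 12 h replicate 1 and 8 without 12 h replicate 2. The median over the factors stayed between 0.27 and 0.42 in these fits. Within the larger run alone the median was 0.42 and 5 factors passed, Wdr75, Wdr43, Nop58, Wdr12 and Ddx21, with adjusted p from 0.0488 to 0.0499. Without a term for the run 0 passed, with a median of 0.24.

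Because the factors moved together, their promoters are shown here beside the values. RefSeq windows (build GRCm38.p6) from 250 bases before to 50 bases after the start of transcription were matched to 42 of the 48 factors. The E-box CACGTG, the letters bound by MYC with MAX among other factors, was found in 7 of the 42 (16.7%), against 9.58% of the 15005 measured protein-coding genes with a window and 11.9% of the 7960 brighter ones (those at or above the median level of all genes). These are the 7 E-boxes, each in a window of 30 bases on the gene's strand, 5′ to 3′, with the E-box in capitals and its first base counted from 1 at the start of transcription.

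Wdr43, chr17:71616220-71616249, plus strand, E-box at 18: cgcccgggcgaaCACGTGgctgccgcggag
Mybbp1a, chr11:72441347-72441376, plus strand, E-box at 41: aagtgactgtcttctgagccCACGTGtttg
Tsr1, chr11:74898092-74898121, plus strand, E-box at 25: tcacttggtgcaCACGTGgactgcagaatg
Pes1, chr11:3963965-3963994, plus strand, E-box at 3: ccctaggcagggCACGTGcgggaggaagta
Nop2, chr6:125131811-125131840, plus strand, E-box at −60: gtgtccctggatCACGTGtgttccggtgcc
Ltv1, chr10:13193092-13193121, minus strand, E-box at 29: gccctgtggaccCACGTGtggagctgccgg
Utp20, chr10:88826765-88826794, minus strand, E-box at 38: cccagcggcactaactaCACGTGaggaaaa

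Of these 7, Wdr43 and Mybbp1a were among the 14 that passed, where 29.2% of all 48 factors did. All but Nop2 carry the E-box after the start. The other 3 motifs searched, on both strands like the E-box, were the GC box GGGCGG, the ETS core CCGGAAG and the TATA letters TATAAA. The GC box was in 32 of 42 windows (76.2%; 53.7% of measured coding genes and 69.7% of the brighter ones). The ETS core was in 14 (33.3%; 13.8% and 21.1%), and TATAAA in 2 (4.76%; 13.8% and 8.78%). A match describes letters only and is neither a site nor a cause. Each motif was searched on its own, so matches of different motifs may share bases. For 4 factors the last 100 bases before the start are printed, with any of the 4 motifs in capitals on either strand. These bases are only part of the windows searched. Nop58 and Gnl3, Nhp2 and Wdr75 all passed at 15 h.

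Nop58, chr1:59684906-59685005, plus strand: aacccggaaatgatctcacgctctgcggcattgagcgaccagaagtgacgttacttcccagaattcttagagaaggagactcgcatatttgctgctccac
Nhp2, chr11:51619673-51619772, plus strand: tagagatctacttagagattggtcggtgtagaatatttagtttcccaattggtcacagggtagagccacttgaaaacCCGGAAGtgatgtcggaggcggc
Gnl3, chr14:31019132-31019231, minus strand: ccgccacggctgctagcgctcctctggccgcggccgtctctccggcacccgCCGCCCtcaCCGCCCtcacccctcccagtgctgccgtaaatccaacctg
Wdr75, chr1:45795066-45795165, plus strand: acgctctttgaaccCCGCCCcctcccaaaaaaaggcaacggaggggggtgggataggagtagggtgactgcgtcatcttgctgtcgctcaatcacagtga

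The stretch of Nop58 holds none of the 4 motifs, that of Nhp2 has an ETS core, and those of Gnl3 and Wdr75 have the GC box on the opposite strand. Further upstream, the searched window of Nop58 has a GC box at −110, and that of Nhp2 has GC boxes at −223, −127 and −107. A GC box was therefore found in the windows of all 4.

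Of RNA polymerase I, which makes the precursor RNA, 0 of 5 measured genes passed in any of the 7 comparisons. That is near the share of all genes, of which 0.652% passed higher over 9, 12 and 15 h. Over 9, 12 and 15 h the median change was 0.23, and 3 were higher at an unadjusted p under 0.05, where 7.39% of all genes were. Polr1e, a subunit specific to this polymerase, changed by 0.26 ± 0.07 (SE; adjusted p = 0.126), Polr1b, one of its large catalytic subunits, by 0.24 ± 0.10 (adjusted p = 0.343) and Polr1c, a subunit shared with RNA polymerase III, by 0.23 ± 0.06 (adjusted p = 0.133). Polr1a, its largest subunit, had the value 0.19 (adjusted p = 0.426). The deposited log2 levels of Polr1c in the larger run were 9.75 and 9.58 in the controls, 9.96 at 4 h, 9.79 at 9 h, 10.11 and 9.99 at 12 h, 9.90 and 9.94 at 15 h and 10.002 and 10.09 at 48 h. All treated arrays of that run lay above both controls. In the smaller run Polr1c was 10.85 in the control and 10.86 and 10.91 on the 9 h arrays, a difference of at most 0.06. Ubtf, the HMG-box protein that keeps ribosomal genes open, was the only factor below 0 (−0.0016 ± 0.05, 95% interval −0.11 to 0.10, adjusted p = 0.994). Its levels in the larger run were 10.65 and 10.71 in the controls and 10.64 to 10.73 on the 8 treated arrays, so the groups overlapped. The median change of the polymerase genes was 0.40 on the single 9 h array of the larger run, and 0.01 and 0.04 on those of the smaller. Such a gap was not theirs alone: over all 48 factors these medians were 0.45, and 0.15 and 0.13.

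Of the snoRNP core, 2 of 9 factors passed over 9, 12 and 15 h and all 9 were above 0 (median 0.32). Nop58, which with Nop56 and the methyltransferase fibrillarin forms the box C/D core, had log2 levels of 9.20 and 9.16 in the controls of the larger run, 9.36 at 4 h, 9.57 at 9 h, 9.74 and 9.79 at 12 h, 9.73 and 9.77 at 15 h and 9.47 and 9.66 at 48 h. In the smaller run it was 9.81 in the control and 10.15 and 10.08 on the 9 h arrays. Every treated array therefore lay above the controls of its run, and those at 12 and 15 h were highest in the larger one. Nop58 rose by 0.49 ± 0.06, or 1.41-fold (adjusted p = 0.00385), and was the 1 factor that passed in all 13 fits that each left out an array (adjusted p from 0.00385 to 0.0496). Nhp2, of the box H/ACA core that makes pseudouridine, was at 8.16 and 7.85 in the controls, 8.40 at 4 h, 8.46 at 9 h, 8.58 and 8.61 at 12 h, 8.65 and 8.65 at 15 h and 8.34 and 8.51 at 48 h. The 15 h pair stood highest in that larger run. In the smaller run Nhp2 was 9.37 in the control and 9.66 on both 9 h arrays, an identical value. No treated array overlapped the controls of its run. Nhp2 rose by 0.52 ± 0.07, or 1.44-fold (adjusted p = 0.0113), and lost its call without control replicate 2 (adjusted p = 0.0576).

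Partners of these proteins in the same particles had other values. Nop10, also of the H/ACA core, changed by 0.48 ± 0.12 (adjusted p = 0.110), and its controls lay apart, at 10.49 and 10.06. Dkc1, the pseudouridine synthase itself, changed by 0.19 ± 0.07 (adjusted p = 0.337) and was lowest on the 4 h array, at 9.30 against 9.44 and 9.72 in the controls. Gar1, the remaining H/ACA protein, changed by 0.14 ± 0.06 (adjusted p = 0.385). In the C/D particle Nop56 changed by 0.32 ± 0.07 (adjusted p = 0.0607) and Fbl, fibrillarin, by 0.11 ± 0.05 (adjusted p = 0.429). The Fbl value is uncertain, since a further probe set of the gene, the one that sits among probe sets of its own chromosome, gave 0.30 ± 0.06 (adjusted p = 0.056 in the fit to every probe set). Nolc1, a chaperone of snoRNPs, changed by 0.36 ± 0.08 (adjusted p = 0.0632) and Rrp9, a protein of a snoRNP that guides cleavage, by 0.28 ± 0.07 (adjusted p = 0.107). Whether any of these differs from Nop58 or Nhp2 was not tested.

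**Figure D2:**
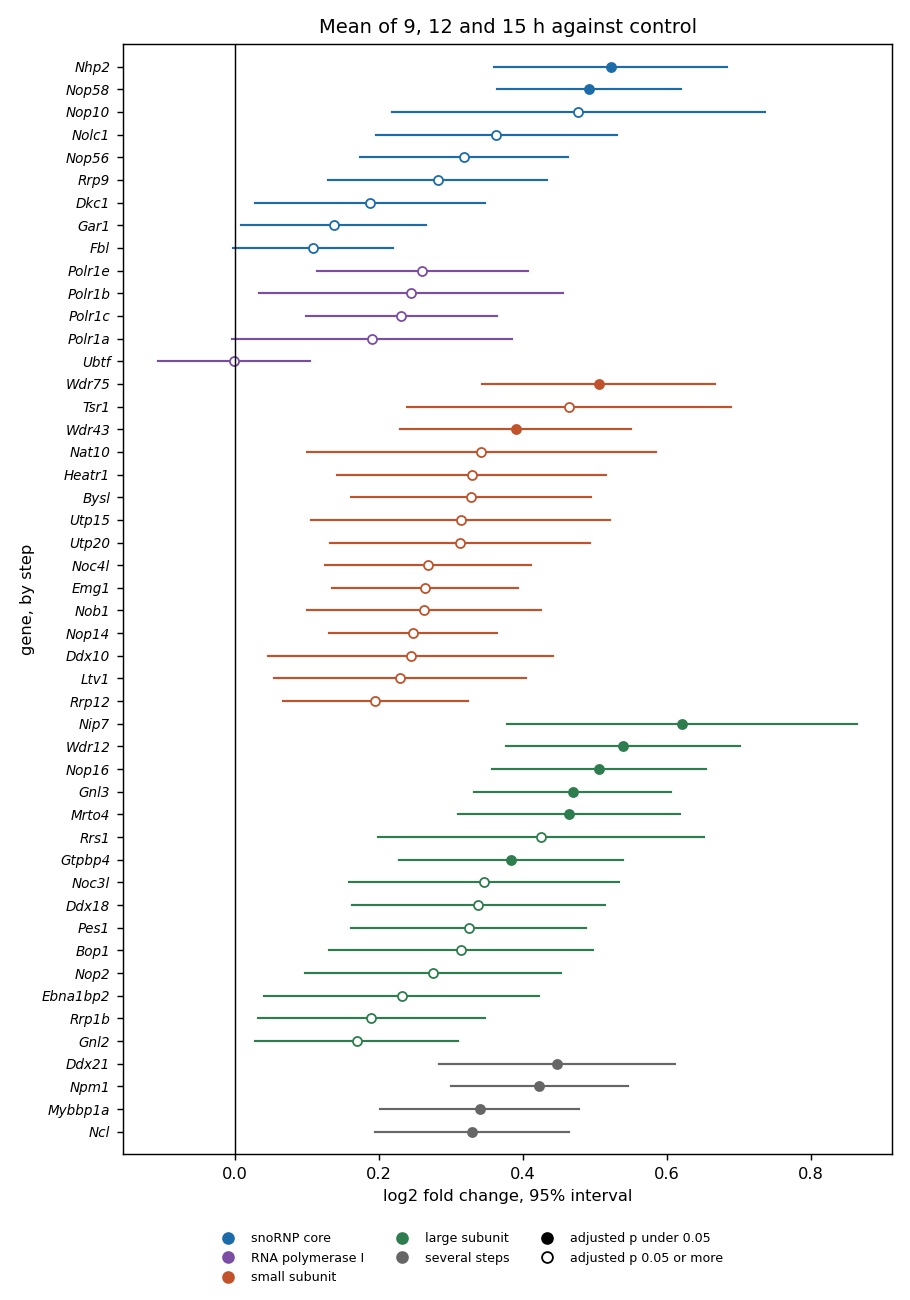
Log2 fold change of the mean of 9, 12 and 15 h against control (horizontal axis) for each of 48 factors, with 95% intervals from limma; filled points have an adjusted p under 0.05. The 14 filled points lie between 0.33 (Ncl) and 0.62 (Nip7), and Ubtf alone lies at 0.

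Of the 15 factors of the small subunit, all were above 0 over 9, 12 and 15 h (median 0.31) and 2 passed. Both belong to complexes that bind the nascent precursor early. Wdr75 was at 8.93 and 8.72 in the controls of the larger run, 9.10 at 4 h, 9.32 at 9 h, 9.34 and 9.46 at 12 h, 9.55 and 9.47 at 15 h and 9.33 and 9.47 at 48 h. In the smaller run its level was 9.95 in the control and 10.13 and 10.19 at 9 h. All treated arrays of Wdr75 were above the controls of their run and the 48 h pair was as high as those at 9 and 12 h. Its rise was 0.51 ± 0.07, or 1.42-fold (adjusted p = 0.0133), and it no longer passed without control replicate 2 (adjusted p = 0.0932) or 15 h replicate 1. Wdr43 was at 9.83 and 9.82 in the controls, 10.05 at 4 h, 10.41 at 9 h, 10.21 and 10.25 at 12 h, 10.29 and 10.36 at 15 h and 10.15 and 10.28 at 48 h. The controls of Wdr43 agreed closely and no treated array reached down to them. It rose by 0.39 ± 0.07 (adjusted p = 0.038) and passed in 4 of the 13 fits that left out an array.

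Among the 13 factors of the small subunit that did not pass, Tsr1, a GTPase-like protein of late maturation, had the largest value (0.46 ± 0.10, adjusted p = 0.0753). It was followed by Nat10, which acetylates cytidines of the small subunit RNA (0.34 ± 0.11, adjusted p = 0.234), Heatr1 (0.33 ± 0.08, adjusted p = 0.129), a partner of Wdr43 and Wdr75 in early transcription-coupled assembly, and Bysl (0.33 ± 0.08, adjusted p = 0.0863). Nob1, the nuclease that makes the last cut of the small subunit RNA, changed by 0.26 ± 0.07 (adjusted p = 0.169) and Emg1, a methyltransferase, by 0.26 ± 0.06 (adjusted p = 0.078). The smallest value was that of Rrp12, an export factor, at 0.19 ± 0.06 (adjusted p = 0.205). The other 6 (Utp15, Utp20, Noc4l, Nop14, Ddx10 and Ltv1) lay between 0.23 and 0.31. All 13 were higher at an unadjusted p under 0.05, where 7.39% of all genes were.

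Of the 15 measured factors of the large subunit, 6 passed and all were above 0 (median 0.35). Nop16 was at 9.65 and 9.40 in the controls of the larger run, 10.03 at 4 h, 10.04 at 9 h, 10.11 and 9.97 at 12 h, 10.11 and 10.09 at 15 h and 9.92 and 10.05 at 48 h, and in the smaller run at 10.41 in the control and 10.85 and 10.81 at 9 h. The single 4 h array, on which intestine and muscle markers were high, was thus within the range of the later arrays of that run. The controls of Nop16 lay 0.25 apart in that run, and its change at 4 h did not pass. Its rise was 0.51 ± 0.07, or 1.42-fold (adjusted p = 0.00801). Gnl3 (nucleostemin), a GTPase of the nucleolus that is abundant in stem and progenitor cells, was at 9.23 and 9.08 in the controls, 9.50 at 4 h, 9.52 at 9 h, 9.71 and 9.56 at 12 h, 9.75 and 9.65 at 15 h and 9.45 and 9.58 at 48 h. In the smaller run it was 9.80 in the control and 10.15 and 10.21 at 9 h. No treated array overlapped the controls of its run. Gnl3 rose by 0.47 ± 0.06, or 1.38-fold (adjusted p = 0.00801). Nop16 and Gnl3 each lost their call without control replicate 2 (adjusted p = 0.0623 and 0.0787) and kept it without any 1 of the other 12 arrays.

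Wdr12, Pes1 and Bop1 form 1 complex, called PeBoW, that is needed for large subunit RNA processing. Wdr12 was at 8.48 and 8.25 in the controls of the larger run, 8.73 at 4 h, 8.84 at 9 h, 9.01 and 9.03 at 12 h, 9.02 and 9.02 at 15 h and 8.77 and 9.01 at 48 h. The 4 arrays at 12 and 15 h were the highest, with 48 h replicate 2 just below them, and no treated array overlapped the controls. It rose by 0.54 ± 0.07, or 1.45-fold (adjusted p = 0.00934; 0.071 without control replicate 2). Pes1 changed by 0.32 ± 0.07 (adjusted p = 0.0834) and Bop1 by 0.31 ± 0.08 (adjusted p = 0.143), and neither passed.

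Nip7, a factor of large subunit precursors, had the largest rise of all 48 factors, 0.62 ± 0.11 or 1.54-fold (adjusted p = 0.0313), and also the widest interval among those that passed (0.38 to 0.87). Its controls lay 0.57 apart, at 7.87 and 7.30, with 8.35 at 4 h, 7.93 at 9 h, 8.32 and 8.36 at 12 h, 8.21 and 8.26 at 15 h and 8.01 and 8.19 at 48 h. The 9 h array was barely above the higher control. Nip7 passed in 4 of 13 fits that left out an array, and its change in them ran from 0.46 to 0.81. Mrto4, which holds the place of a stalk protein on the precursor, rose by 0.46 ± 0.07 (adjusted p = 0.0146; 0.156 without control replicate 2, and also lost without 12 h replicate 1 or 15 h replicate 1). Gtpbp4, a GTPase of the nucleolus, rose by 0.38 ± 0.07 (adjusted p = 0.0362) and passed in 6 of the 13. Rrs1, which helps to bring ribosomal proteins into the precursor, changed by 0.43 ± 0.10 (adjusted p = 0.102), and Gnl2, a GTPase of the same family as Gnl3, had the smallest value, 0.17 ± 0.06 (adjusted p = 0.324). Noc3l (0.35), Nop2 (0.27), Ebna1bp2 (0.23) and Rrp1b (0.19) did not pass either.

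All 4 factors that act at several steps passed. Npm1 (nucleophosmin) and Ncl (nucleolin) are abundant nucleolar proteins that bind ribosomal RNA and proteins. Npm1 was at 10.92 and 10.87 in the controls of the larger run, 10.78 at 4 h, 11.22 at 9 h, 11.35 and 11.36 at 12 h, 11.50 and 11.32 at 15 h and 11.13 and 11.20 at 48 h, and in the smaller run at 11.64 in the control and 11.91 and 11.95 at 9 h. The 4 h array lay below both controls and every later array above them. Npm1 rose by 0.42 ± 0.06, or 1.34-fold (adjusted p = 0.00801; 0.071 without control replicate 2). Ncl was at 11.47 and 11.51 in the controls, 11.44 at 4 h, 11.80 at 9 h, 11.90 and 11.88 at 12 h, 11.98 and 11.78 at 15 h and 11.57 and 11.68 at 48 h. It too was lowest at 4 h, and it rose by 0.33 ± 0.06 (adjusted p = 0.038). Ddx21, an RNA helicase of rRNA transcription and processing, rose by 0.45 ± 0.07 (adjusted p = 0.024), and Mybbp1a, which links rRNA synthesis and p53, by 0.34 ± 0.06 (adjusted p = 0.0367). In the fits that left out an array Ddx21 passed in 7 of 13, Mybbp1a in 4 and Ncl in 2. A further 3 probe sets of Npm1 are annotated to other genes as well and were not used.

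**Figure D3:**
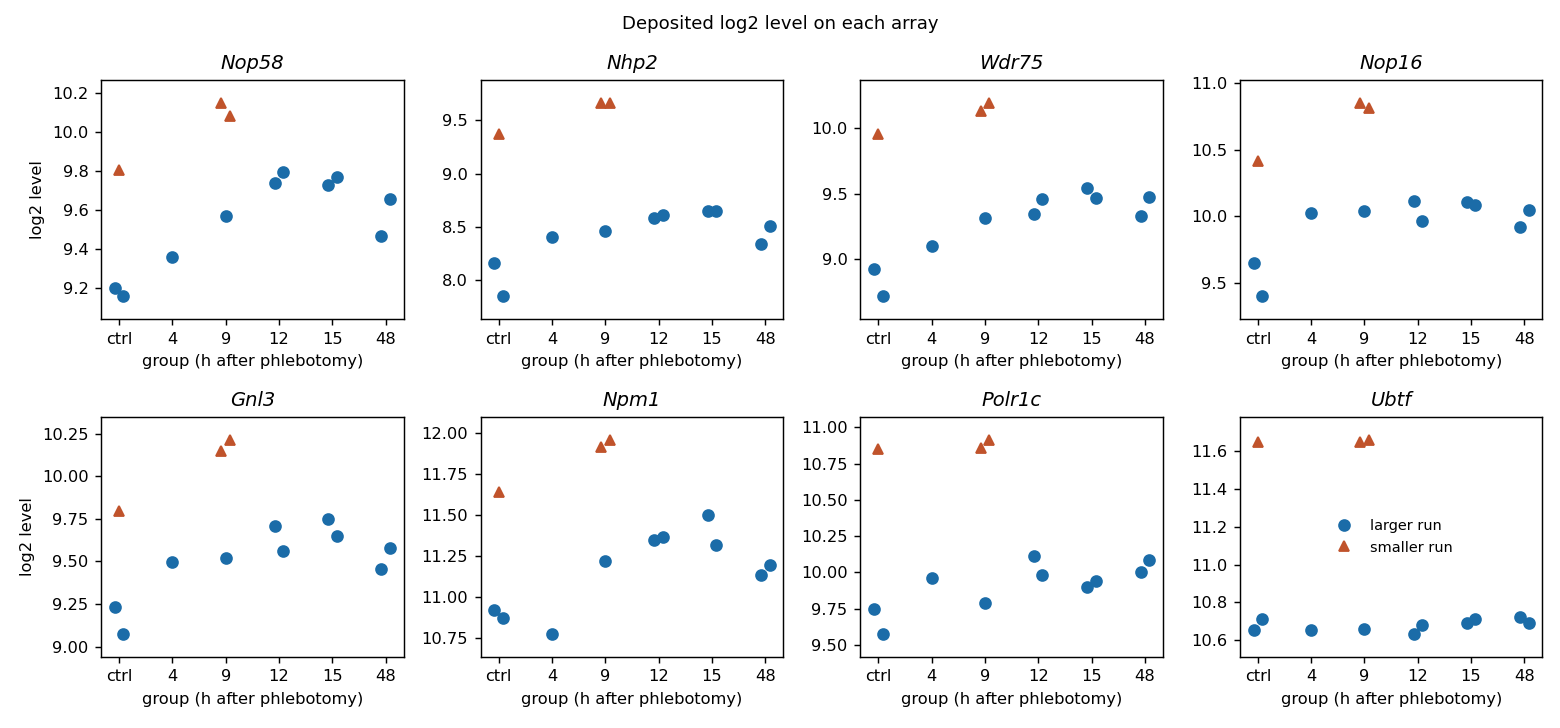
Deposited log2 level on each array (vertical axis; each panel has its own range) against group (horizontal axis) for 8 factors, with circles for the larger run and triangles for the smaller. In the panels of Nop58, Nhp2, Wdr75, Nop16 and Gnl3 all treated arrays lie above the controls of their run, in that of Npm1 all but the 4 h array do, and in that of Ubtf the groups overlap.

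By time, the fitted median was lowest at 4 h, a value that rests on 1 array. There 0 of 48 factors passed (1.74% of all genes did so in the higher direction and 0.251% in the lower), 10 were higher at an unadjusted p under 0.05 (8.02% of all genes), 40 were above 0 (49.2%), and the median change was 0.18. It was 0.10 with each array centred on its median and 0.12 without control replicate 2. The place of this time depends on the run: the 4 h array stood 0.23 above the control mean of its run in the median, under every later array of that run but above both 9 h arrays of the smaller run (0.15 and 0.13), and without 9 h replicate 3 the fitted median at 9 h was 0.14. The 4 h array lay above both controls for 38 factors, where 35.7% of all genes did. The largest changes were those of Nip7 (0.79 ± 0.19, adjusted p = 0.0667), Rrs1 (0.50 ± 0.17, adjusted p = 0.206) and Nop16 (0.49 ± 0.11, adjusted p = 0.0655), all of the large subunit. The lowest was that of Dkc1, at −0.30, the 1 factor with an unadjusted p under 0.05 in that direction (7.21% of all genes). Markers of small intestine and skeletal muscle were high on this array, as given above, and their part in these values was not tested. Without control replicate 1, 2 factors passed, Nip7 and Nop16.

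At 9 h, 0 factors passed (0.0502% of all genes did) and 35 were higher at an unadjusted p under 0.05 (3.64%), with a median of 0.30 and 47 above 0 (55% of all genes). Both runs hold this time and differed. The 9 h change was larger in the larger run for 43 of 48 factors, by a median of 0.27 against 0.03 over all genes. In a test of that difference 0 factors passed (smallest adjusted p = 0.776) and 13 had a larger change there at an unadjusted p under 0.05, where 3.86% of all genes did. The median was 0.14 without 9 h replicate 3 and 0.45 without control replicate 3, when 1 factor passed, Wdr43. Each run's 9 h value rests on 1 or 2 arrays and on its own controls.

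At 12 h, Nop58 alone passed (0.0853% of all genes did), with a rise of 0.57 ± 0.08 or 1.49-fold (adjusted p = 0.0272), and 34 factors were higher at an unadjusted p under 0.05 (7.63%). The median was 0.30, with 47 factors above 0 (47.9% of all genes). Both 12 h arrays were above both controls of the run for 46 factors, where 20.1% of all genes were. The count was 11 without control replicate 1, 2 without either 48 h array, 1 without the 4 h array and 0 without any 1 of the other 9 arrays.

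At 15 h, 7 factors passed (0.211% of all genes did) and 39 were higher at an unadjusted p under 0.05 (7.23%), with a median of 0.38 and all 48 above 0 (48% of all genes). The 7 were Wdr75 (0.63 ± 0.10), Nhp2 (0.62 ± 0.10), Wdr12 (0.62 ± 0.10), Nop58 (0.56 ± 0.08), Nop16 (0.55 ± 0.09), Gnl3 (0.55 ± 0.09) and Npm1 (0.51 ± 0.08), with adjusted p from 0.0194 to 0.0446. All 7 are among the 14 named above, and the comparisons share their controls. The dimmer probe set of Wdr12, described below, gave 0.63 ± 0.13 at 15 h and did not pass (adjusted p = 0.108 in the fit to every probe set). Both arrays lay above both controls for 46 factors (20.3% of all genes). The count was 0 without control replicate 2, 9 h replicate 1 or either 15 h array, 1 without 9 h replicate 2 or either 12 h array, and 6 to 8 without any 1 of the other 6 arrays.

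At 48 h, 0 factors passed (0.326% of all genes did), 29 were higher at an unadjusted p under 0.05 (9.31%), all 48 were above 0 (53.5% of all genes) and the median was 0.27. A single factor passed there without control replicate 1 (Nip7), and another without control replicate 3 or 9 h replicate 3 (Wdr75). Both 48 h arrays lay above both controls for 40 factors, where 24.2% of all genes did. Against the mean of 9, 12 and 15 h, 0 factors passed in either direction (0.0953% of all genes were lower and 0.883% higher), 40 were below 0 (46.7% of all genes) and 8 above, and the median was −0.05 (all genes 0.01). That median was 0.02 without 9 h replicate 3, −0.01 without 48 h replicate 1, −0.11 without 48 h replicate 2 and −0.09 without control replicate 3, so its direction rests on single arrays. At an unadjusted p under 0.05 there were 3 lower, where 6.16% of all genes were: Rrs1 by −0.29 ± 0.12 (adjusted p = 0.277), Ncl by −0.22 ± 0.07 (adjusted p = 0.186) and Npm1 by −0.16 ± 0.07 (adjusted p = 0.276). Both 48 h arrays lay below all 5 arrays at 9, 12 and 15 h for 5 factors, a share near the 6.11% of all genes. The largest values upward were those of Polr1c (0.14 ± 0.07, adjusted p = 0.381) and Gnl2 (0.07 ± 0.08, adjusted p = 0.694). Rrs1 shows the spread at this time, with 7.18 and 7.57 at 48 h against 7.10 and 7.24 in the controls and 7.64 to 7.90 on the 5 arrays between. Liver markers were high on both 48 h arrays, as given above, and their part in these values was not tested.

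**Figure D4:**
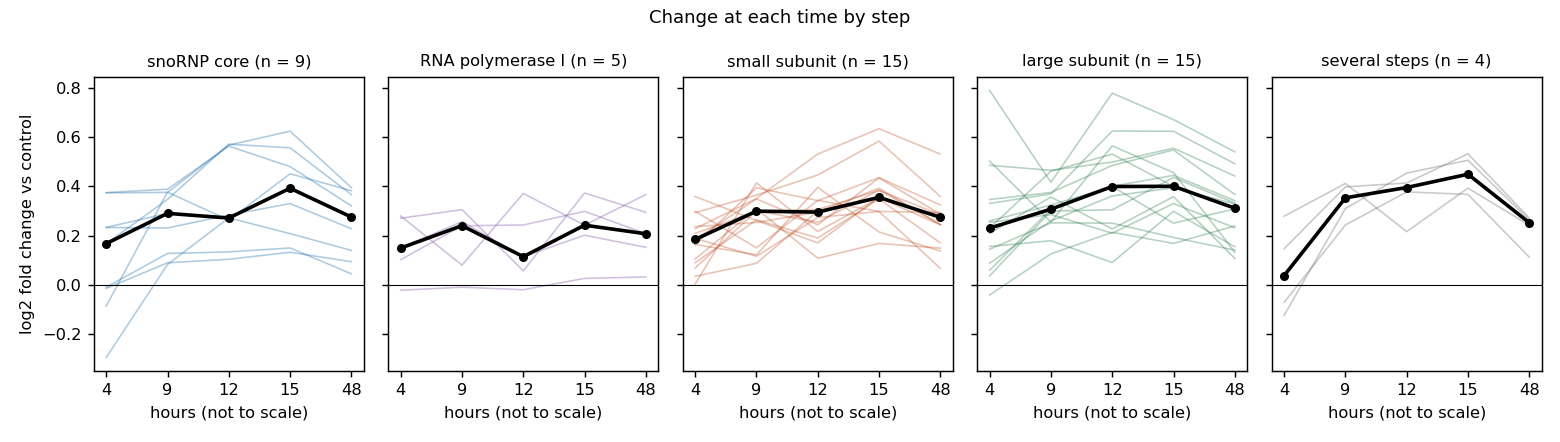
Log2 fold change against control (vertical axis) at 4, 9, 12, 15 and 48 h (horizontal axis, not to scale) from the fit to all arrays; thin lines are factors and the black line with points is the median of each step. Every median is above 0 at every time, the lowest being 0.04 at 4 h for the 4 factors of several steps and the highest 0.45 at 15 h for the same 4.

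By mean level in the larger run, 19 of the 48 factors were highest at 9 h, 9 at 12 h, 17 at 15 h, 2 at 48 h and 1 at 4 h. None was highest in the controls. The lowest mean was that of the controls for 40 factors and that of the 4 h array for 8. The 9 h and 4 h means are single arrays, so the order of 9, 12 and 15 h carries little weight. Times of the highest and lowest mean were not counted over all genes, so these counts only describe the factors. Of the 9 snoRNP factors 5 were highest at 15 h, and of the 15 small subunit factors 8 at 9 h.

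For 4 factors a further probe set was read in parallel, and in the fit to every probe set the pairs differed in part. Those of Mrto4 gave 0.46 ± 0.07 and 0.43 ± 0.07 (adjusted p = 0.0161 and 0.024), and those of Wdr12 gave 0.54 ± 0.07 and 0.50 ± 0.10 (adjusted p = 0.0105 and 0.0431). For Fbl the brighter probe set, used above, gave 0.11 ± 0.05 (adjusted p = 0.424) and the dimmer one 0.30 ± 0.06 (adjusted p = 0.056). For Ddx18, a helicase of the large subunit, the brighter gave 0.34 ± 0.08 (adjusted p = 0.0936) and the dimmer 0.15 ± 0.07 (adjusted p = 0.418). Probe set numbers of this array mostly follow the genome. The probe set used for Fbl, a gene of chromosome 7, sits among probe sets of chromosome 17 (17 of its 20 neighbours). That used for Wdr12, of chromosome 1, sits among chromosome 7 (18 of 20), and that used for Ddx18, of chromosome 1, among chromosome 6 (17 of 20). The further probe set of Mrto4, a gene of chromosome 4, sits among chromosome 12 (19 of 20), while the one used sits among chromosome 4. The values of Fbl, Wdr12 and Ddx18 are uncertain for that reason, and the nearness of the Mrto4 pair is no independent check. With the dimmer probe set for all 4 factors the count over 9, 12 and 15 h was again 14. At 15 h the same change gave a count of 6.

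**Figure D5:**
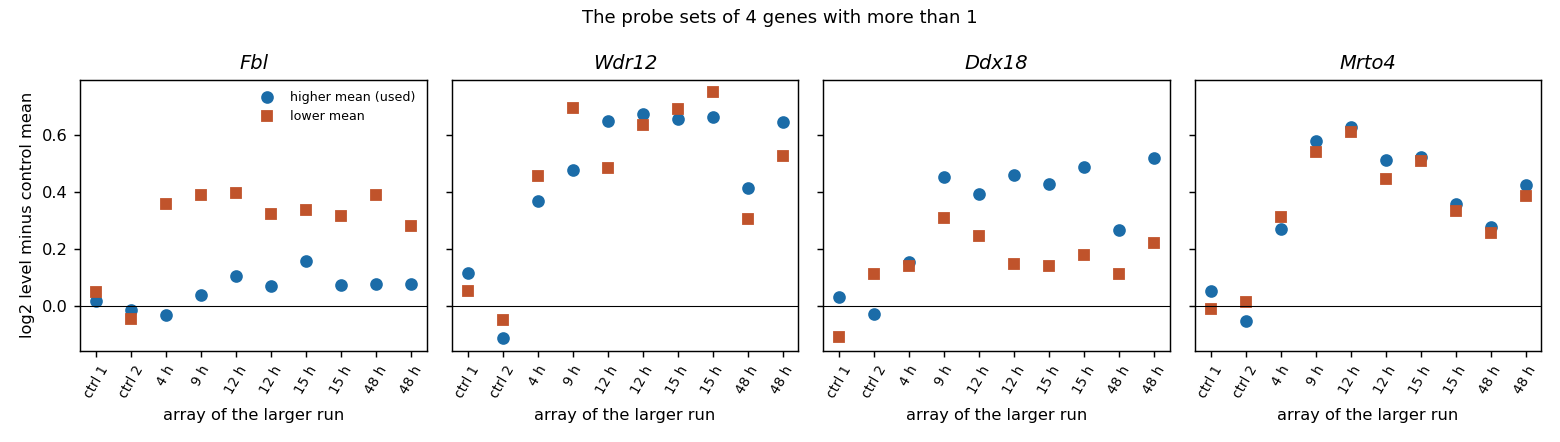
Log2 level minus the mean of both controls (vertical axis) on the 10 arrays of the larger run (horizontal axis) for both probe sets of 4 factors. The probe sets of Mrto4 and Wdr12 rise together, those of Fbl part from the 4 h array on with the dimmer one higher, and those of Ddx18 part at 9 h and later with the brighter one higher.

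Beyond the set, a list of 108 other ribosome biogenesis factors (104 measured) gave a median of 0.18 over 9, 12 and 15 h. Of the 104, 99 were above 0 (49.1% of all genes), 9 passed higher (0.652%) and 0 lower (0.135%). The 4 with the smallest p were Rsl1d1, a nucleolar protein (0.39 ± 0.06, adjusted p = 0.0116), Pno1, a partner of Nob1 (0.54 ± 0.08, adjusted p = 0.0151), Nmd3, the export adaptor of the large subunit (0.42 ± 0.07, adjusted p = 0.0194), and Wdr74, of large subunit assembly (0.40 ± 0.07, adjusted p = 0.024). At 15 h Rsl1d1 alone passed (0.211% of all genes did). Among this list's genes of RNA polymerase I transcription, Rrn3, the initiation factor that brings the polymerase to its promoter, passed over 9, 12 and 15 h (0.39 ± 0.07, adjusted p = 0.0342) and was named after its value was seen. The others did not pass: Taf1d changed by 0.25 ± 0.09 (adjusted p = 0.292), Taf1a by 0.15 ± 0.08, Polr1d by 0.11 ± 0.06, Taf1b by 0.01 ± 0.07, Ttf1 by −0.002 ± 0.067 and Taf1c by −0.02 ± 0.07. Whether Rrn3 differs from these or from the 5 polymerase genes was not tested. Of 55 cytosolic ribosomal proteins 0 passed at an adjusted p under 0.05 in any comparison, near the share of all genes (0.652% higher over 9, 12 and 15 h). Over 9, 12 and 15 h their median was 0.12, with 51 above 0 (49.1% of all genes). At an unadjusted p under 0.05, 15 were higher, where 7.39% of all genes were.

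Of 11 genes of the MYC network, whose central factor drives many ribosome genes, 0 passed in any comparison. This too is near the share of all genes (0.652% higher over 9, 12 and 15 h). Over 9, 12 and 15 h the median was −0.05. At an unadjusted p under 0.05, 1 gene, Mxi1, was lower, where 919 of 19938 genes were. Myc itself was at 10.07 and 10.02 in the controls of the larger run, 10.51 at 4 h, 10.59 at 9 h, 10.35 and 10.26 at 12 h, 10.51 and 10.01 at 15 h and 10.11 and 10.25 at 48 h, and in the smaller run at 10.89 in the control and 11.04 and 10.95 at 9 h. The groups overlapped at 15 h, where 1 array lay below both controls. Myc changed by 0.39 ± 0.18 at 4 h (adjusted p = 0.352), 0.32 ± 0.13 at 9 h (adjusted p = 0.806) and 0.21 ± 0.11 over 9, 12 and 15 h (adjusted p = 0.47). Of its partners and antagonists over the same times, Max changed by −0.09 ± 0.07 (adjusted p = 0.644), Mycn by −0.03 ± 0.07 (adjusted p = 0.901), Mnt by −0.08 ± 0.05 (adjusted p = 0.56), Mxd1 by −0.08 ± 0.07 (adjusted p = 0.691), Mxd3 by −0.20 ± 0.09 (adjusted p = 0.425), Mxd4 by −0.04 ± 0.12 (adjusted p = 0.931) and Mxi1 by −0.20 ± 0.06 (adjusted p = 0.242).

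Markers of the cells that make up marrow are given beside the rise. Over 9, 12 and 15 h the medians were −0.03 for 9 erythroblast genes, of which only Tfrc, the transferrin receptor, passed (0.46 ± 0.09, adjusted p = 0.0453), 0.04 for 5 of granulocyte progenitors, −0.04 for 10 of mature neutrophils, −0.13 for 8 of the B lineage and −0.03 for 17 of proliferation, with 0 passing in the last 4. Of the 9 erythroblast genes 4 were above 0 (49.1% of all genes). At an unadjusted p under 0.05 in limma, 1 erythroblast gene was higher (Tfrc) and 1 lower, 2 B lineage genes were lower and 1 proliferation gene was higher. In the granulocyte progenitor and mature neutrophil lists 0 genes reached that level. Of all 19938 genes, 7.39% were higher and 919 genes were lower at that level. The summed erythroblast level was 14.96 and 15.34 in the controls of the larger run and 15.04 to 15.20 on its 5 arrays at 9, 12 and 15 h, so it overlapped. At 48 h the erythroblast median was 0.31 and that of proliferation 0.19, with 0 genes of either list passing. At an unadjusted p under 0.05, 4 and 7 of their genes were higher, where 9.31% of all genes were. Other medians at 48 h were −0.27 for granulocyte progenitors, −0.135 for mature neutrophils and −0.25 for the B lineage. Those of 7 T and NK genes and 7 stroma genes were −0.28 and −0.32. At 4 h, on 1 array, the medians were −0.37 for erythroblasts, −0.30 for proliferation and −0.19 for the B lineage. They were 0.17 for granulocyte progenitors, 0.03 for mature neutrophils, −0.13 for T and NK genes and 0.01 for stroma. Of the 12 small intestine markers 7 passed lower over 9, 12 and 15 h, where 0.135% of all genes did, with a median of −0.47. The part of these markers in the rise of the ribosome factors was not tested.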

How the data were processed

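The deposited value table holds 1 column of log2 levels per array, which the authors made with RMA, per the submitters' processing notes; its version, and which arrays were normalized together, are not given in the sources used here. Of 35557 probe sets, 21789 have 1 gene symbol in the platform annotation, 1621 have several and for 12147 no gene is listed here. Symbols of 21698 were updated through the Entrez identifier. A gene with several probe sets was represented by that with the highest mean level, giving 19938 genes.

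From these values 1 linear model was fitted with limma 3.58.1 in R 4.3.3 to all 13 arrays, with 6 groups and the run of title numbers as a fixed effect (6 residual and 4.62 prior degrees of freedom). The run term is additive, so fitted changes at 4, 12, 15 and 48 h, times held by the larger run alone, also draw on the smaller run. In the larger run alone the factor medians at these times were 0.23, 0.35, 0.44 and 0.32. In the main fit they were 0.18, 0.30, 0.38 and 0.27. The single 4 h array was taken to have the spread of the remaining groups. That spread includes the smaller run, whose repeated values add little to it. Standard errors and p-values of every contrast may therefore be too small, and by how much was not tested. Of the 7 contrasts 5 set a time against control, 1 set the average of 9, 12 and 15 h against control and 1 set 48 h against that average. Genes with an adjusted p under 0.05 (Benjamini-Hochberg, all 19938 genes) passed. The fit was checked on simulated data. Replicate numbers are names in sample order and pair nothing. Precision is limited by how few arrays there are: the median standard error of a factor was 0.07 for the mean of 9, 12 and 15 h and 0.12 at 4 h.

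The factors and all lists were chosen by function with earlier results of these data known. Named with values were every factor that passed, in each step the 3 largest and the smallest change over 9, 12 and 15 h, and the 2 largest changes in each direction at 48 h against that mean, with 8 MYC network genes and up to 4 other biogenesis factors per contrast. Factors named beyond this rule, Rrn3 and Tfrc were chosen after their values were seen. Promoter windows are those of RefSeq, searched with Python 3.11.15. Alternatives changed the run term, the arrays, the normalization, the probe sets, the filter on dim genes, the variance model and the array weights, and left out each array in turn.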

Additional observations from a re-analysis of the deposited data

How the results depend on the processing

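No paired analysis was possible because replicate numbers are names in sample order and no label ties samples of different groups. The count of factors that passed over 9, 12 and 15 h (14) was 0 without a run term, 5 in the larger run alone, 2 with array weights and 9 without the 4 h array and 9 h replicate 1, the last chosen after seeing the data. It lay between 11 and 20 under the other alternatives and between 1 and 22 when single arrays were left out. At 12 h (1 factor) the count was 0 without a run term, in the larger run alone, with the groups of the contrast alone, with array weights and without the 4 h array and 9 h replicate 1, 9 with the run as a random block, 7 with dim genes left out, 2 after quantile normalization, 8 with trend and robust moderation, and 0 to 11 without single arrays. At 15 h (7 factors) it was 0 without a run term, in the larger run alone, with the groups of the contrast alone, with array weights and without the 4 h array and 9 h replicate 1, and 0 to 8 without single arrays. At 4 h (0) it was 1 with the run as a random block, 1 after quantile normalization, 2 with trend and robust moderation, 4 with array weights, and 0 to 2 without single arrays. At 48 h (0) it was 2, 1 and 3 under the first 3 of these and 0 to 1 without single arrays, and at 9 h (0) 0 to 1. Array weights gave 9 h replicates 1 and 2, whose run repeats values, 14.5 and 10.2 against at most 3.1 elsewhere. Fbl turned to −0.031 without a run term, and Ubtf ran from −0.017 to 0.019 when single arrays were left out. Every other named factor kept its direction over 9, 12 and 15 h under all alternatives run. Of the values of single factors 580 kept their side of the threshold, 210 lost it and 6 gained it. Without a run term the median change of the factors turned to −0.10 at 4 h and −0.03 at 48 h. That fit averages control replicate 3 of the smaller run (median level of the factors 9.81) with the controls of the larger run (8.69 and 8.69). All 4 h and 48 h arrays are of the larger run. What moved the other counts and values was not tested.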
